A study of Mus musculus with 8 samples.

Results

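Cycling cells of mouse inguinal white adipose tissue (iWAT) were selected on 2 transcripts of dividing cells: a cell was counted as cycling when it held 3 or more unique molecular identifiers (UMIs, each 1 captured RNA molecule) of Mki67 and Top2a together. Of 36370 cells kept in 8 libraries, 280 met this rule, which is 0.770%. The cells came from the stromal vascular fraction (SVF), the cells left when digested fat is freed of floating adipocytes, and were profiled by droplet capture (10x Genomics, 3' counting). Of the libraries, 4 (replicates 1, 3, 5 and 7) came from mice with free access to food (Ad-Lib) and 4 (replicates 2, 4, 6 and 8) from mice on the TAN schedule, offered food only in 2 windows of each dark phase. All mice were C57BL/6 (C57BL/6J by the study's text), on regular chow and male by the study's description. Their age is uncertain, being 8 weeks by the labels and several months by the study's text. Lymph nodes were excluded and tissue was taken in the dark phase, by the study's methods. The study counts 4 mice per group, while the labels name no mouse, so that p-values measure the spread between libraries. The question was which lineages divide in each feeding group.

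A cell that commits to divide passes from G1 into S phase, when its DNA is copied and histones and DNA replication enzymes are made in bulk, and then through G2 into mitosis, when chromosomes condense and the spindle pulls them apart. In adult fat most cells rest outside the cycle, and division is a route by which resident macrophages, capillary endothelium and adipocyte progenitors renew or expand. Lymphocytes divide after antigen contact, above all in lymphoid tissue, and conventional dendritic cells are made by a precursor that still divides in tissue.

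The 4 markers code for proteins with different parts in that programme. Mki67 (ENSMUSG00000031004, chromosome 7, 135689784 to 135716361 in GRCm38, minus strand) codes for Ki-67, which coats mitotic chromosomes. Top2a (ENSMUSG00000020914, chromosome 11, 98992943 to 99024189, minus strand) codes for the topoisomerase that untangles replicated DNA. Birc5 (ENSMUSG00000017716, chromosome 11, 117849251 to 117855743, plus strand) codes for survivin, of the chromosomal passenger complex, and Cdk1 (ENSMUSG00000019942, chromosome 10, 69335146 to 69352938, minus strand) for the kinase that starts mitosis. Neither Birc5 nor Cdk1 entered the rule. Mki67 was found in 95.7% and Top2a in 90.7% of the cycling cells, as the rule makes likely. Birc5 was found in 70.7% and Cdk1 in 65.0% of them, against 0.296% and 0.357% of the 36090 other cells. These shares describe the label and were not tested, since all 4 genes belong to the contrast that the rule set up. The cycling cells held 90.6% of all Birc5 UMIs and 82.6% of all Cdk1 UMIs of the kept cells. Just outside the threshold stood 115 cells with 2 marker UMIs, of which 19.1% held Birc5 or Cdk1. Just inside it stood 41 cells with 3 marker UMIs, of which 53.7% did, while 215 cells had 5 or more marker UMIs and 89.3% of those held Birc5 or Cdk1. Most of the selected cells thus lay above the threshold rather than at it. Cycling cells were also the deeper cells, with a median of 13597 UMIs against 4997.

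Genes of late cell cycle stages are known to share promoter elements, a CCAAT box (bound by NF-Y) and a cell cycle genes homology region (CHR, bound by the DREAM and B-MYB complexes). The promoters of the 4 markers, 250 bases before to 50 bases after the start site, are shown because their transcripts were found in the same cells. They were taken from RefSeq on GRCm38.p6 at chr7:135716330-135716629 (Mki67, minus strand), chr11:99024140-99024439 (Top2a, minus strand), chr10:69352863-69353162 (Cdk1, minus strand) and chr11:117848987-117849286 (Birc5, plus strand). Capitals mark CCAAT and TTTGAA, the letters searched, on either strand.
Mki67: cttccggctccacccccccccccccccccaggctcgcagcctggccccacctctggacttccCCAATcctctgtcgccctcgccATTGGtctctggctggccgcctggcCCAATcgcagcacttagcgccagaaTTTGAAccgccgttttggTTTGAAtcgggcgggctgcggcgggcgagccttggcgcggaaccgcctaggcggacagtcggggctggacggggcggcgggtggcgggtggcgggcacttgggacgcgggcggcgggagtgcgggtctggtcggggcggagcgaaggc
Top2a: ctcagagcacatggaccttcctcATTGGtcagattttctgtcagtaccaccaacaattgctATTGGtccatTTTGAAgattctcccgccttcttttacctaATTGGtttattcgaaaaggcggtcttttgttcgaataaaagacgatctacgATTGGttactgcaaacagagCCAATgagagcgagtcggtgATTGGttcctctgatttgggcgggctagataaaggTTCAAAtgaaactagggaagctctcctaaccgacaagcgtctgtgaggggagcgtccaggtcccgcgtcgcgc
Cdk1: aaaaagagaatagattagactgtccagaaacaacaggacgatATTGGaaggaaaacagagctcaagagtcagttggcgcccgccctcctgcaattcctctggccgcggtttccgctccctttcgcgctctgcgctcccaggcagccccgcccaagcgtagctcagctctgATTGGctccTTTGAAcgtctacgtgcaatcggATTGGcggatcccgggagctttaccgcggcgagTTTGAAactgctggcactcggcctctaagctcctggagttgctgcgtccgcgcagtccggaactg
Birc5: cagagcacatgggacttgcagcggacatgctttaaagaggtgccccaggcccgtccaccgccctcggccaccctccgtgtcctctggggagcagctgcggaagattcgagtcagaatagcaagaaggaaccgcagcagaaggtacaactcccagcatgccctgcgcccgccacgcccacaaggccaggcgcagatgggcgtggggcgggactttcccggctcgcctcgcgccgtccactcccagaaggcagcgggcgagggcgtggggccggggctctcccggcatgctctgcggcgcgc
Mki67 held 3 matches to CCAAT and 2 to TTTGAA, Top2a 6 and 2, and Cdk1 3 and 2. The TTTGAA nearest the start site began 23 bases before it in Top2a, 15 bases before it in Cdk1 and 98 bases before it in Mki67. Birc5 held 0 of either in this window. Of 32851 mouse promoters of the same length, 37.4% held CCAAT, 17.9% held TTTGAA and 6.95% held both, so that such matches are common and are given as a description.

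Each library held 25320800 to 37140950 UMIs, and medians of 3926 to 6560 UMIs per kept cell. Lymphocytes were spread unevenly over the libraries. By longer marker lists, T and B cells were 2.70%, 24.1%, 5.85% and 3.31% of the kept cells of Ad-Lib 1, 3, 5 and 7, and 8.73%, 31.0%, 40.2% and 23.1% of those of TAN 2, 4, 6 and 8. Ad-Lib 3 therefore stood apart from its group, and 3 of the 4 TAN libraries were rich in lymphocytes. Results over all cycling cells are therefore given also without cells that held Cd3e or Cd79a, for the cycling share and for the metallothioneins. Of the barcode sequences, 252 occurred in 2 or more libraries, and 0 were shared between cycling cells. A caller of simulated doublets marked 23 of the 280 cycling cells (8.21%) and 3.71% of all kept cells, and both were kept in the main counts.

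Cycling cells were found in every lineage whose gene was examined. The lineage genes were C1qa (a complement subunit made by tissue macrophages), Cd3e (a chain of the T cell receptor complex), Cd79a (a chain of the B cell receptor complex), Ncr1 (the NKp46 receptor of natural killer cells), Pecam1 (the CD31 junction protein of endothelium) and Pdgfra (the growth factor receptor of stromal and adipocyte progenitors). C1qa alone was held by 63 cycling cells, Cd3e alone by 38, Pecam1 alone by 27, Cd79a alone by 15, Pdgfra alone by 9 and Ncr1 alone by 4. Several of the genes were held by 55 cycling cells, most often Pecam1 with Cd3e (19 cells) or Pecam1 with Cd79a (14 cells). Cells with several of the genes were 19.6% of the cycling cells and 11.2% of the kept cells, and 8 of the 55 were marked as doublets. None of the 6 genes was held by 69 cycling cells.

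**Figure D1:**
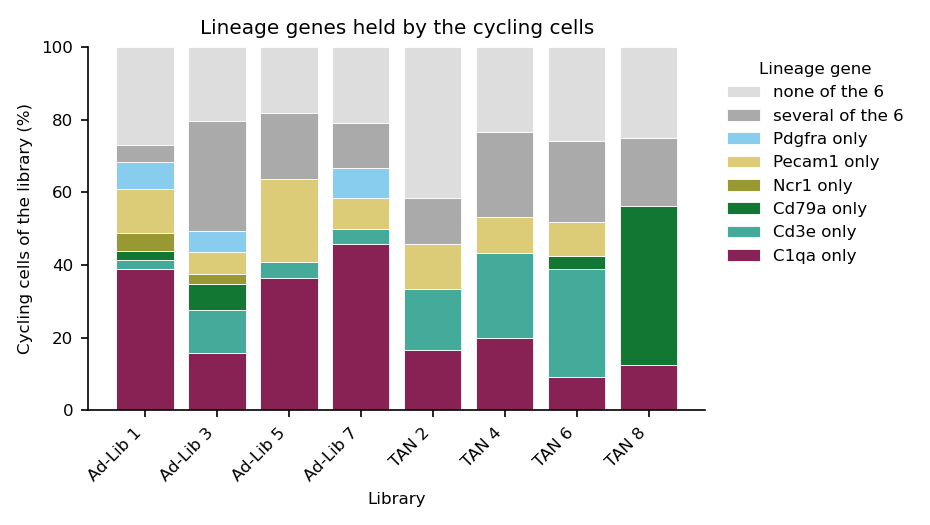
Lineage genes held by the cycling cells of each library, as a percentage of that library's cycling cells (y axis, stacked to 100%; 8 libraries on the x axis). C1qa (dark red) made up 15.9% to 45.8% of the cycling cells in Ad-Lib and 9.26% to 20% in TAN, Cd3e (teal) reached 29.6% in TAN 6, and Cd79a (green) 43.8% in TAN 8.

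The longer lists of 7 markers per cell type placed most cells that the single genes left over. A cell was named for the list with the most detected markers, with at least 3. Each lineage gene is 1 of the 7 markers of its own list, so that matches between the 2 labels are partly built in. Of the 63 cells with C1qa alone, 60 were macrophage-like, and all 38 cells with Cd3e alone were T cell-like. Pecam1 alone was a poorer label: 17 of its 27 cells were endothelial-like, 3 dendritic cell-like, 2 T cell-like and 1 like a group 2 innate lymphoid cell (ILC2). Among the 69 cells with none of the genes, 18 were dendritic cell-like and 13 T cell-like, and 20 had under 3 markers of any list. Among the 55 with several genes, 28 were T cell-like and 12 B cell-like. In all, 81 cycling cells were T cell-like, 63 macrophage-like, 24 dendritic cell-like, 22 B cell-like, 21 endothelial-like and 10 stromal progenitor-like, with 4 natural killer-like, 4 ILC2-like, 3 plasma cell-like and 1 each like a mast cell, a monocyte and a pericyte. The other 45 were tied (20) or under 3 markers (25). T cells were thus the largest set by the longer lists and macrophages by the single genes.

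Some classes held no cycling cell at this depth. Among 1883 cells named for the adipocyte list there were 0, so that up to 0.159% could have been cycling. Erythroid-like cells held 0 among 207, which allows up to 1.45%, Schwann-like cells 0 among 140 (up to 2.14%) and neutrophil-like cells 0 among 78 (up to 3.85%). These limits cover counting error only. The adipocyte-like and erythroid-like cells were shallow, with medians of 1135 and 1060 UMIs.

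The total share of cycling cells did not differ between the feeding groups beyond the spread of the libraries. It was 0.797%, 1.41%, 0.579% and 0.646% in Ad-Lib 1, 3, 5 and 7 (41, 69, 22 and 24 cells) and 0.556%, 0.609%, 0.955% and 0.408% in TAN 2, 4, 6 and 8 (24, 30, 54 and 16 cells). Ad-Lib 3 and TAN 6 were the highest of their groups, and the groups overlapped. The mean was 0.858% ± 0.379 and 0.632% ± 0.232 (SD over 4 libraries each), a difference of -0.226 percentage points (exact permutation test, two-sided, p = 0.371). With 1 library left out it ranged from -0.334 (without TAN 6) to -0.0420 (without Ad-Lib 3). With each cell thinned to 2000 UMIs and 2 marker UMIs required, the shares were 0.663% ± 0.254 and 0.543% ± 0.250 (exact permutation test, p = 0.457). This step left out 3028 shallower Ad-Lib cells and 4096 shallower TAN cells, of which 5 and 7 were cycling. Among cells without Cd3e or Cd79a, the shares were 0.708% ± 0.192 and 0.458% ± 0.208 (exact permutation test, n = 4 each, p = 0.143).

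**Figure D2:**
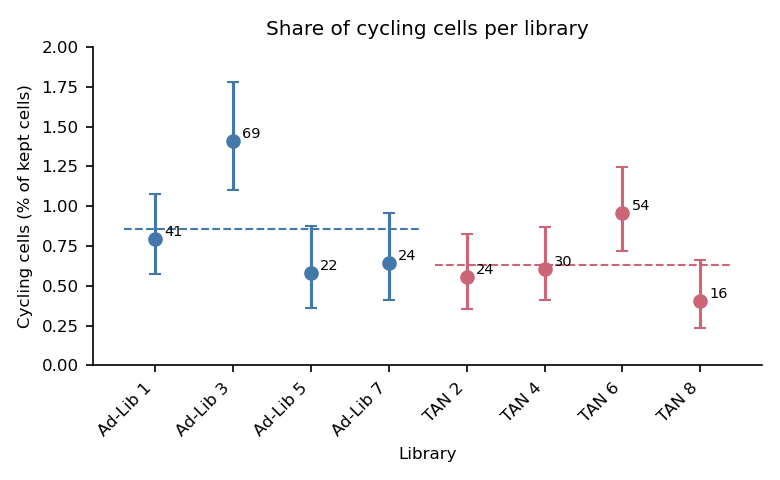
Cycling cells as a percentage of kept cells in each library (points, with exact 95% Clopper-Pearson intervals that cover counting error only; the printed numbers are counts of cycling cells; dashed lines are group means). Ad-Lib 3 (1.41%) and TAN 6 (0.955%) are the highest libraries and the groups overlap.

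Within single lineages, the cycling share of C1qa cells gave the smallest p between the groups by the rule of 3 marker UMIs. Its difference was -0.675 percentage points, while those of Ncr1 (-2.56) and Cd79a cells (-0.805) were larger. The C1qa share was 1.65%, 1.94%, 1.37% and 1.72% in the Ad-Lib libraries and 0.889%, 1.47%, 1.20% and 0.415% in the TAN libraries. The lowest Ad-Lib library lay below 1 TAN library, TAN 4, and above the other 3. The means were 1.67% ± 0.234 (46 of 2764 cells) and 0.993% ± 0.453 (17 of 1758 cells), with n = 4 libraries each (exact permutation test, two-sided, p = 0.0571; 0.343 after Benjamini-Hochberg adjustment over 6 lineages). With cells thinned to 2000 UMIs the shares were 1.51% ± 0.276 and 0.804% ± 0.384, with n = 4 each (exact permutation test, p = 0.0286, the smallest that 4 against 4 libraries can give; adjusted 0.171). With 6 lineages and 4 against 4 libraries, the smallest adjusted p that a lineage alone can reach is 0.171. By the longer macrophage list it was smaller, at 1.65% ± 0.174 and 1.18% ± 0.473 (exact permutation test, n = 4 each, p = 0.171).

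Of the cells with Cd3e, 11 of 443 were cycling in Ad-Lib and 27 of 1649 in TAN. The shares were 1.49%, 3.35%, 1.18% and 1.92% in the Ad-Lib libraries and 3.23%, 1.40%, 2.00% and 0% in the TAN libraries, which overlapped widely (exact permutation test, p = 0.743). The larger count in TAN stood beside a larger number of T cells. By the longer T cell list the difference was larger, at 2.40%, 3.51%, 1.38% and 5.94% in the Ad-Lib libraries and 2.41%, 1.35%, 2.00% and 0.5% in the TAN libraries, still with overlap (3.31% ± 1.96 and 1.57% ± 0.832, SD, n = 4 each; exact permutation test, p = 0.143, adjusted 0.514). With 2 marker UMIs as the threshold, the Cd3e difference was -1.45 percentage points (exact permutation test, p = 0.0571, adjusted 0.257), and with Cd3e counted beside other lineage genes -1.63 points (exact permutation test, p = 0.229). Pecam1 cells were cycling in 16 of 3801 cases in Ad-Lib (0.413% ± 0.120, SD over 4 libraries) and 11 of 4255 in TAN (0.256% ± 0.228) (exact permutation test, p = 0.314), and the difference of -0.157 points ranged from -0.256 (without TAN 6) to -0.0714 (without TAN 8) with 1 library left out. Thinned to 2000 UMIs per cell, the Pecam1 difference was -0.0289 points (exact permutation test, p = 0.8). Cd79a cells gave 6 of 542 and 9 of 1313 (exact permutation test, p = 0.714). Ncr1 cells gave 4 of 121 Ad-Lib cells, in Ad-Lib 1 and 3, and 0 of 71 TAN cells, which allows up to 4.23% (exact permutation test, p = 0.429).

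By the rule of 3 marker UMIs, dividing Pdgfra cells were seen in Ad-Lib libraries alone, in a number too small for a call. They were 9 of 4685 cells, at 0.191%, 0.390%, 0% and 0.180% in Ad-Lib 1, 3, 5 and 7 (3, 4, 0 and 2 cells). In TAN they were 0 of 2992 cells, for an upper limit of 0.100% that covers counting error only. Over libraries the difference was -0.190 percentage points (exact permutation test, n = 4 each, p = 0.143; adjusted 0.429). With 2 marker UMIs as the threshold, the TAN libraries held 0.107%, 0.133%, 0.194% and 0% and the Ad-Lib libraries 0.191%, 0.390%, 0% and 0.270%, a difference of -0.104 points (exact permutation test, n = 4 each, p = 0.343; adjusted 0.514). Of the 9 cells, 4 were marked as doublets, and by the longer stromal list 1 cycling cell appeared among 4024 TAN cells and 9 among 6052 Ad-Lib cells.

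**Figure D3:**
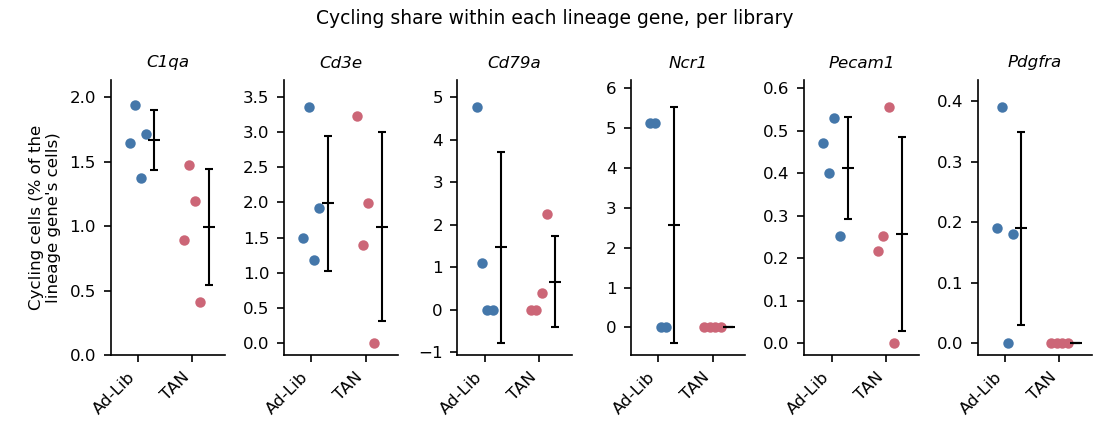
Cycling cells as a percentage of the kept cells that hold 1 lineage gene alone (y axes, one per gene, on different scales), with 1 point per library (blue Ad-Lib, red TAN) and the mean ± SD of 4 libraries in black. C1qa cells stand at 1.37% to 1.94% in Ad-Lib and 0.415% to 1.47% in TAN, and every other lineage overlaps more widely or rests on libraries at 0.

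Cycling shares of the lineages are set beside that of C1qa cells, a reference taken after the values were seen, as a description without a test. C1qa cells exceeded Pdgfra cells in 8 of 8 libraries, by 1.23 ± 0.397 percentage points (mean ± SD of the differences over 8 libraries). They exceeded Pecam1 cells in 8 of 8 libraries, by 0.996 ± 0.412 points. Pdgfra cells were deeper, at a median of 10117 UMIs, and Pecam1 cells shallower, at 4089, than C1qa cells at 5518.5, and the part of depth in these pairs was not tested. C1qa cells minus Cd3e cells gave -0.490 ± 0.960 points, with C1qa higher in 4 of 8 libraries. Among the classes of the longer lists the share was highest in the dendritic cell-like class, where 24 of 302 cells (7.95%; exact interval 5.16% to 11.6%) were cycling in both groups pooled, and these cells were deep, with a median of 12678.5 UMIs. In TAN alone it was 9 of 163 (5.52%), and 2 small classes stood higher there, the ILC2-like at 4 of 38 cells and the plasma cell-like at 2 of 33.

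The dividing macrophages differed in their subtype genes from the resting ones, which is given as a description without a test. Ccr2, the chemokine receptor of monocyte-derived cells, was found in 48 of 63 cycling C1qa cells (76.2%) and in 26.1% of the other 4459, and its level was 648 UMIs per 1000000 (CPM) against 345. Lyve1, a hyaluronan receptor of resident perivascular macrophages, was found in 22.2% against 49.3%, at 120 against 669 CPM. Folr2 was found in 47.6% against 68.4%, and Timd4, a receptor of long-lived resident macrophages, in 3.17% against 17.5%. Median depth was 12139 UMIs in the cycling C1qa cells and 5518.5 in all C1qa cells. H2-Ab1, an MHC class II chain, was at 3955 and 3960 CPM. Ccl8 and Cd209f, of the resident programme too, were among the genes with the lowest ratio, at -4.85 and -4.53 (mean log2 difference over 8 libraries).

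Splitting C1qa cells by Ccr2, a split chosen after these values were seen and therefore not tested, gave few cycling cells without it. Of C1qa cells with Ccr2, 4.03%, 4.03%, 3.21% and 5.29% were cycling in the Ad-Lib libraries and 3.53%, 4.44%, 6.67% and 1.59% in the TAN libraries, with overlap. Of those without Ccr2, 0.594%, 1.19%, 0.504% and 0.425% were cycling in Ad-Lib (13 of 1960 cells) and 0.274%, 0%, 0.279% and 0% in TAN (2 of 1352 cells), so that each TAN value rests on 0 or 1 cell. Splits by Lyve1 and Folr2 were made as well, and of C1qa cells with Lyve1, 13 of 1391 were cycling in Ad-Lib and 1 of 820 in TAN, and of those with Folr2, 26 of 2007 and 4 of 1074. The cells with Ccr2 were deeper, with a median of 7096 UMIs against 4883.5. Among cells without Ccr2 the library medians were 4712 to 5380 UMIs in Ad-Lib and 2694 to 5995 in TAN, and the part of depth was not tested. Cells with Ccr2 made up 26.2% to 32.0% of the C1qa cells in Ad-Lib and 14.4% to 33.1% in TAN.

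The 81 cycling T cell-like cells were deep, with a median of 13434 UMIs against 5512.5 in the whole class, so that levels per UMI are given beside the shares of cells. Ccr7, a chemokine receptor that guides naive cells to lymph nodes, was found in 25.9% of them against 46.2% of the other 3985, at 60.2 against 184 CPM. Cd44, a memory and activation receptor, was found in 64.2% against 27.4%, at 111 against 81.8 CPM. Gata3, the factor of type 2 and regulatory T cells, was found in 49.4% against 21.5%, at 83.4 against 52.6 CPM. Shares of cells differed more than levels for Il2ra too (21.0% against 7.83%, at 36.1 against 27.5 CPM), and Foxp3, the factor of regulatory T cells, was found in 14.8% against 5.22%, at 33.5 against 18.5 CPM. The co-receptors Cd8a and Cd4 were found in more of the cycling cells, 45.7% against 40.6% and 28.4% against 22.9%, but at lower levels, 161 against 206 CPM and 45.5 against 58.6 CPM. Cd8a was held by 19 of the 32 cycling T cell-like cells of TAN 6, 9 of the 17 of Ad-Lib 3 and 4 of the 13 of TAN 4, and Cd4 by 5, 4 and 9 of them. ILC2-like cycling cells numbered 1 of 10, 2 of 11, 0 of 7 and 1 of 10 in TAN 2, 4, 6 and 8 and 0 of 38 in Ad-Lib, too few for a call and not tested, with both groups holding libraries at 0.

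Dividing dendritic cells were the largest typed set among the cells with no lineage gene. Xcr1, Clec9a and Cd209a are on the list that named this class. Of the 24, 62.5% held Xcr1 and 58.3% held Clec9a, which mark the cross-presenting conventional type 1 cells, 87.5% held their factor Batf3 and 29.2% held Cd209a, of type 2 cells. The same genes were found in 50.0%, 60.8%, 70.5% and 41.7% of the other 278 dendritic cell-like cells. Per UMI, Xcr1 was at 161 against 217 CPM, Clec9a at 115 against 179, Batf3 at 198 against 144 and Cd209a at 106 against 354. Depth differed as well, with a median of 19284 UMIs in the cycling cells and 12678.5 in the class. None held Siglech, of plasmacytoid cells. The cycling share of this class was 9.30%, 13.04%, 10% and 10% in the Ad-Lib libraries and 10%, 10.8%, 3.17% and 2.33% in the TAN libraries, with means of 10.6% ± 1.67 and 6.58% ± 4.45 (exact permutation test, n = 4 each, p = 0.286; class added after the first results were seen). TAN 6 and TAN 8 were the low libraries.

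Dividing B cells held more of Mef2b, a transcription factor of the germinal centre, the lymphoid structure where B cells are selected for receptor affinity. It was found in 16 of 22 cycling B cell-like cells (72.7%) against 1.84% of the other 2657, at 190 against 6.196 CPM. Ighd, the heavy chain of naive B cells, was found in 59.1% against 90.0%, at 107 against 884 CPM. Bcl6, the factor that sets up the germinal centre, was found in 45.5% against 12.6% but at a like level, 40.1 against 38.7 CPM, beside a median depth of 16854 UMIs in the cycling cells and 3466 in the class. These cells came almost wholly from Ad-Lib 3 (15 of 22) and TAN 8 (6 of 22), with 1 in TAN 6. Of the 16 cells with Mef2b, 11 were in Ad-Lib 3 and 5 in TAN 8. B cell-like cells were 14.2% and 12.9% of the kept cells of those libraries and 11.6% and 11.8% in TAN 4 and TAN 6, where dividing ones were 0 and 1. Whether lymph node tissue was carried over into these pads was not tested.

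Among 21 dividing endothelial-like cells, 85.7% held Gpihbp1, the capillary protein that binds lipoprotein lipase, against 95.4% of the other 7868. Apln, the ligand of the apelin receptor known from sprouting endothelium, was found in 47.6% against 5.05%, at 233 against 29.6 CPM. Esm1, of the same list of subtype genes, went the other way, at 0% against 3.01% and 0 against 27.7 CPM. Sema3g, of arterial cells, was found in 9.52% against 28.6% and the capillary carbonic anhydrase Car4 in 38.1% against 58.0%. In the looser set of 27 cells with Pecam1 alone, MHC class II genes such as Cd74 were higher than in other Pecam1 cells, by 2.903 ± 2.989 on the log2 scale (mean ± SD of 7 libraries, higher in 5), and 10 of those cells were not endothelial-like.

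The 10 stromal progenitor-like dividing cells held Pi16 in 7 cases, Dpp4 in 5, Gdf10 in 6 and Col15a1 in 3, genes of different progenitor states. The other 10066 cells of the class held them in 46.7%, 40.5%, 49.4% and 43.4%, and 4 of the 10 cycling cells were marked as doublets. Per UMI, Pi16 was at 608 against 1002 CPM, Dpp4 at 187 against 190.2, Gdf10 at 169 against 206 and Col15a1 at 199 against 230.1, with a median depth of 18750 UMIs in the cycling cells and 9658.5 in the class. Of these genes, Pi16 is on the list that named the stromal class. The 4 dividing natural killer-like cells with Ncr1 all held Eomes and 3 held Gzma, the granule protease. All 3 genes are on the list that named these cells, so that holding them is partly set by the label. The other 188 Ncr1 cells held Eomes in 46.8% and Gzma in 68.1%.

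**Figure D4:**
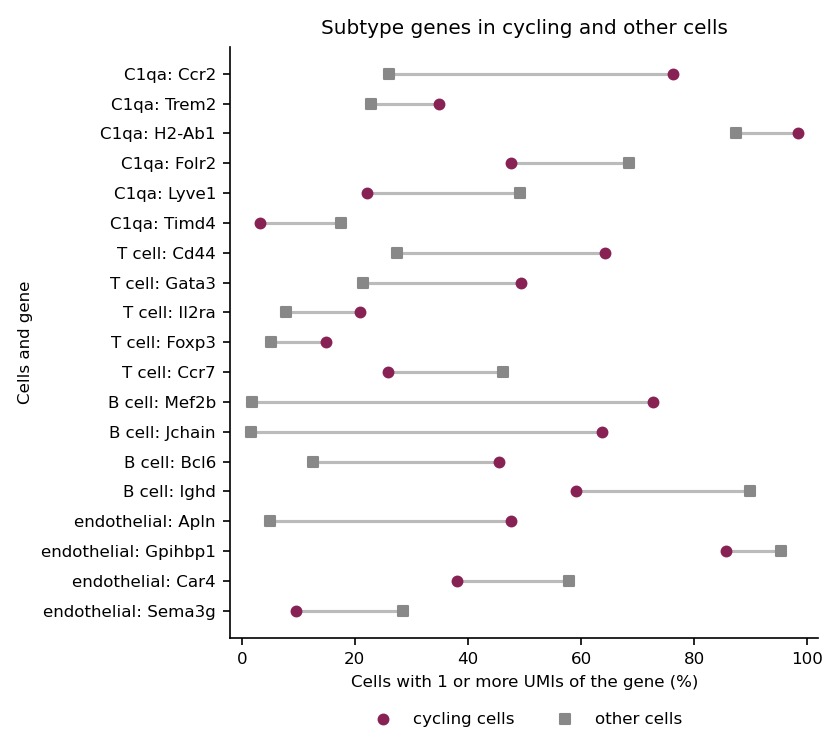
Percentage of cells with 1 or more UMIs of a subtype gene (x axis) in cycling cells (dark red circles) and other cells (grey squares) of the same class: 63 and 4459 cells with C1qa alone, 81 and 3985 T cell-like, 22 and 2657 B cell-like, and 21 and 7868 endothelial-like cells. Ccr2, Cd44, Mef2b and Apln lie to the right in cycling cells, and Lyve1, Timd4, Ccr7 and Ighd to the left.

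The genes with the largest ratio of cycling to other cells are given as a description, since the rule chose these cells. Outside the cell cycle lists, Pclaf (a PCNA-binding replication protein) had the largest ratio to other cells of the same lineage gene in all 3 lineages compared, with mean log2 differences of 4.77 ± 1.15 in C1qa cells (SD, 8 libraries), 6.03 ± 0.764 in Cd3e cells and 4.03 ± 1.79 in Pecam1 cells (7 libraries each). Lmnb1, of the nuclear lamina, followed in C1qa and Cd3e cells, at 4.06 and 3.03. Dtl and Aspm, of replication licensing and the spindle poles, were among the leading 15 in both C1qa and Cd3e cells. Ezh2, the H3K27 methyltransferase, was among them in Cd3e cells alone, at 2.74 ± 0.349. The median of the deoxynucleotide synthesis list was 2.76, 2.99 and 1.62 in C1qa, Cd3e and Pecam1 cells, and that of the mitosis list 2.41, 1.63 and 2.06.

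UMIs of the S phase list were 44.05% of the S phase and mitosis UMIs in Pdgfra cells, 35.0% in C1qa, 31.3% in Cd79a, 30.8% in Cd3e, 21.8% in Ncr1 and 21.1% in Pecam1 cells, values pooled over libraries and given without a test. The medians per cell were 54.1%, 35.3%, 33.3%, 35.4%, 24.3% and 27.0% in the same order, so that C1qa, Cd79a and Cd3e cells did not keep their order, nor did Ncr1 and Pecam1 cells. Of the 9 Pdgfra cells, 4 were marked as doublets. All these cells were chosen on Mki67 and Top2a, and the part of that choice in the S phase shares was not tested. Over all cycling cells the share was 30.8%, 30.6%, 30.4% and 32.2% in the Ad-Lib libraries and 29.2%, 27.6%, 25.8% and 32.4% in the TAN libraries. TAN 8 alone exceeded the Ad-Lib libraries and the other 3 lay below them all. The means were 31.0% ± 0.813 and 28.8% ± 2.80 (exact permutation test, n = 4 each, p = 0.229). With 1 library left out, the difference of -2.24 points ranged from -3.45 (without TAN 8) to -1.25 (without TAN 6).

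Levels of some regulators of cycle entry and exit are given as a description of cycling against other cells, pooled over libraries, for genes picked after their values were seen. Cdkn1a, the p21 inhibitor that damage and mitogens induce, was higher in cycling than in other C1qa cells in each feeding group, at 600 against 150 CPM in Ad-Lib and 426 against 119 in TAN. In Pecam1 cells it was at 375 against 359 CPM in Ad-Lib and 369 against 145 in TAN. Ccnd1, the cyclin that opens G1, was at 286 against 201 CPM in C1qa cells and 349 against 149 in Pecam1 cells. Ccnd2 was lower in cycling than in other Cd3e cells, at 180 against 464 CPM, and Cdkn1c, the p57 inhibitor of resting endothelium, lower in cycling Pecam1 cells, at 24.3 against 194 CPM. Of the 27 cycling Pecam1 cells, 10 were not endothelial-like.

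Between the feeding groups, 2 genes changed in the summed cycling cells of each library, both lower in TAN, of 5081 tested (0.0394%; edgeR quasi-likelihood test, adjusted p under 0.05 and at least 1.5-fold). They were the metallothioneins Mt1 and Mt2, small zinc-binding proteins induced by metals and glucocorticoids. Mt1 was at 440, 254, 528 and 645 CPM in the Ad-Lib libraries and 93.4, 122, 70.6 and 67.8 CPM in the TAN libraries. Mt2 was at 55.6, 45.9, 53.4 and 95.8 CPM in the Ad-Lib libraries and 0, 1.96, 4.93 and 0 CPM in the TAN libraries. The groups did not overlap for either gene, which was also so for 358 of all 5081 tested genes. The log2 changes were -2.33 ± 0.30 (SE) for Mt1 (edgeR adjusted p = 0.0133) and -4.54 ± 0.53 for Mt2 (edgeR adjusted p = 0.0101), the latter resting on 128 UMIs in Ad-Lib and 4 in TAN.

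Levels of Mt1 by lineage, pooled over libraries, are given as a description. Mt1 was highest in cycling Pdgfra cells, at 1228 CPM, which were found in Ad-Lib alone, and was 97.8 CPM in cycling Cd3e cells. Within cycling C1qa cells it was 566 CPM in Ad-Lib and 362 in TAN, and within cycling Cd3e cells 188 and 63.8 CPM. In cycling Pecam1 cells it was 349 and 9.72 CPM, the latter from 1 UMI, and in cycling cells with no lineage gene 466 and 83.8 CPM. Values were lower in TAN in the cells that were not cycling as well, at 1173 and 508 CPM for Mt1 and 273 and 106 CPM for Mt2, pooled over libraries and lineages and not tested. In C1qa cells that were not cycling the values lay closer, at 1168 and 1116 CPM for Mt1 and 156 and 134 CPM for Mt2. The summed stromal progenitor list of 7 genes ranged from 76.8 to 2303 CPM in the cycling cells of the Ad-Lib libraries and from 23.3 to 521 CPM in those of TAN, and its part in the result was not tested. Without cells that held Cd3e or Cd79a, the changes were -1.87 for Mt1 (edgeR adjusted p = 0.0516) and -4.01 for Mt2 (edgeR adjusted p = 0.0811), over 4 and 3 libraries, and neither was called. Leaving out 1 library ended the call of Mt1 for Ad-Lib 7, TAN 2, TAN 4, TAN 6 or TAN 8 (edgeR adjusted p 0.0570 to 0.101) and that of Mt2 for TAN 2 or TAN 4 (edgeR adjusted p 0.0516 and 0.0698). Mt2 was also lower in all Pecam1 cells, at 8.94 ± 1.30 against 26.8 ± 3.74 CPM (log2 change -1.56 ± 0.14, edgeR adjusted p = 0.000712).

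No cell cycle gene passed the test in the cycling cells, where 0 of 170 tested list genes were called (DESeq2 called 3) against 0.0394% of all genes. At an unadjusted edgeR p under 0.05 there were 23 of these 170 genes and 817 of all 5081. Mki67 was at 776 ± 46.7 CPM in Ad-Lib and 700 ± 56.6 in TAN (mean ± SD of 4 libraries), and Top2a at 650 ± 92.6 and 688 ± 93.6. Both are among the 170 genes, but they chose these cells. Their levels here are thus partly set by the rule, and no conclusion is drawn from them. Birc5 was at 304 ± 53.4 and 408 ± 37.3 CPM (log2 change 0.45 ± 0.17, edgeR adjusted p = 0.261) and Cdk1 at 139 ± 16.2 and 183 ± 65.8 CPM (0.42 ± 0.24, edgeR adjusted p = 0.414). The histone list gave a positive log2 change in 9 of 9 tested genes, with a median of 0.67 against -0.01 over all genes, and none was called. Hist1h1b was at 730 and 1381 CPM (0.94 ± 0.27, edgeR adjusted p = 0.173) and Hist1h2ap at 840 and 1373 CPM (0.73 ± 0.27, edgeR adjusted p = 0.247). The chromosomal passenger list had 4 of 4 positive, with a median of 0.27, and the kinetochore list 16 of 22, with a median of 0.19, with none called. The spindle list had 15 of 28 positive, with a median of 0.07, and the S phase list 21 of 37, with a median of 0.04. Over all 170 tested cell cycle genes 113 were positive, with a median of 0.15. The lineage mix of these sums varied. C1qa cells were on average 34.3% of the cycling cells in Ad-Lib and 14.6% in TAN, and Cd3e cells 5.69% and 17.4%, with overlap. The histone list was at 4535 CPM in cycling C1qa cells and 6875 CPM in cycling Cd3e cells. The part of the mix was not tested. Summed over all C1qa cells, 5 of 7 tested histone genes had a negative change. Cells of a single lineage were too few in too many libraries for a test of their own.

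**Figure D5:**
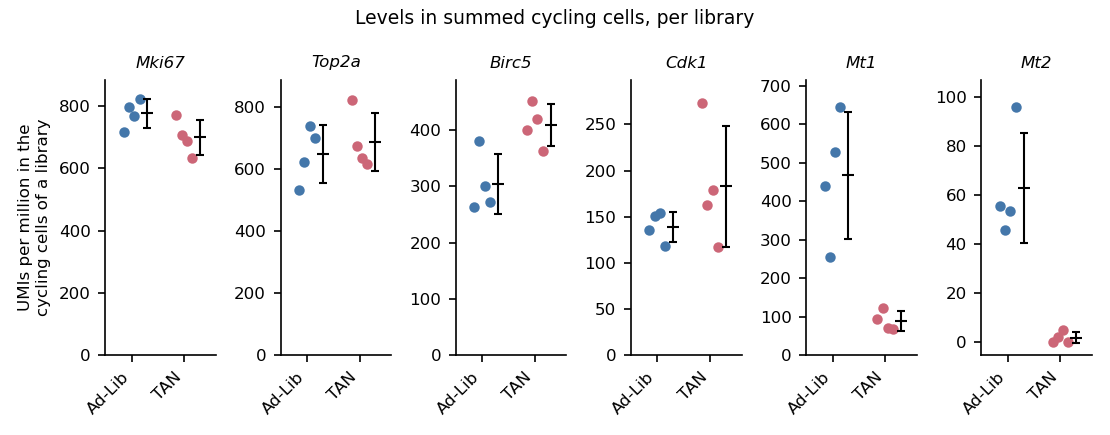
Levels in the summed cycling cells of each library, in UMIs per 1000000 (y axes, one per gene, each from 0 or just below it), with 1 point per library (blue Ad-Lib, red TAN) and the mean ± SD of 4 libraries in black. Mki67, Top2a, Birc5 and Cdk1 overlap between the groups, while Mt1 (254 to 645 CPM in Ad-Lib, 67.8 to 122 in TAN) and Mt2 (45.9 to 95.8 and 0 to 4.93) do not.

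Summing all kept cells of a lineage gave the cell cycle genes without a threshold on single cells. In C1qa cells, 16 of 10291 genes were called (0.155%), of which 2 of 132 tested cell cycle genes, both G1 cyclins and both higher in TAN. Ccnd1 was at 114, 131, 160 and 154 CPM in the Ad-Lib libraries and 271, 361, 325 and 326 in the TAN libraries (log2 change 1.23 ± 0.11, edgeR adjusted p = 0.000217). Ccnd2 was at 23.4 ± 5.84 against 42.4 ± 8.46 CPM (0.87 ± 0.15, edgeR adjusted p = 0.0374). The genes of later stages were not called: Top2a was at 27.4 ± 9.85 and 13.7 ± 4.87 CPM (-0.99 ± 0.24, edgeR adjusted p = 0.115) and Mki67 at 33.0 ± 11.0 and 19.4 ± 11.2 CPM (-0.75 ± 0.35, edgeR adjusted p = 0.395). Of the 35 tested genes of the mitosis list, 28 had a negative change, with a median of -0.27. Of the UMIs in C1qa cells, 495 of 570 for Top2a and 658 of 738 for Mki67 lay in the cells selected as cycling, so that these sums are not separate from the cycling share. Ccnd1 stayed called without any 1 library, while 6 of the 8 omissions ended the call of Ccnd2, all but those of Ad-Lib 5 and TAN 2 (edgeR adjusted p 0.0674 to 0.138), as did the longer macrophage list (0.83, edgeR adjusted p = 0.0820).

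In Pecam1 cells, 134 of 11556 genes were called (1.16%), of which 4 of 109 tested cell cycle genes. Other content moved with the groups: the summed endothelial list of 7 genes was at 5887 to 6872 CPM in the Ad-Lib and 4543 to 5365 CPM in the TAN libraries, without overlap, the T cell list at 9.32 to 113 and 39.5 to 514 CPM, and the stromal list at 186 to 392 and 79.6 to 256 CPM. Their part in the calls was not tested. Ccnd1 rose from 94.2 ± 11.9 to 202 ± 26.4 CPM (log2 change 1.13 ± 0.12, edgeR adjusted p = 0.00122) and Jpt1 from 40.7 ± 4.40 to 61.0 ± 10.6 CPM (edgeR adjusted p = 0.0484). Cdkn1a fell from 359 ± 34.4 to 142 ± 49.1 CPM (-1.29 ± 0.21, edgeR adjusted p = 0.0146), with 310 to 392 CPM in the Ad-Lib and 85.6 to 205 CPM in the TAN libraries. Cdc6, which loads the replicative helicase in G1, fell from 11.7 ± 0.757 to 5.38 ± 0.631 CPM (-1.06 ± 0.16, edgeR adjusted p = 0.00982). Mki67 was at 7.04 ± 4.34 and 5.24 ± 3.59 CPM (-0.39 ± 0.53, edgeR adjusted p = 0.764). Leaving out Ad-Lib 1 or Ad-Lib 7 ended the call of Cdkn1a (edgeR adjusted p 0.0518 and 0.0517), and 5 of the 8 omissions that of Jpt1 (replicates 1, 4, 5, 6 and 7, edgeR adjusted p 0.0920 to 0.140). By the longer endothelial list the change of Jpt1 was 0.47 on the log2 scale, under the 1.5-fold limit of a call.

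In Cd3e cells, 406 of 7637 genes were called (5.32%), 312 of them lower in TAN, of which 1 of 95 tested cell cycle genes. It was Cdkn1a, at 56.2 ± 23.1 CPM in Ad-Lib and 24.2 ± 7.66 in TAN (-1.18 ± 0.26, edgeR adjusted p = 0.0201), and leaving out replicate 1, 5, 4 or 6 alone ended this call (edgeR adjusted p 0.0618 to 0.0884). The summed stromal list in these T cells ranged from 132 to 1102 CPM in Ad-Lib and from 31.9 to 103 CPM in TAN. The macrophage list ranged from 29.2 to 148 and from 8.56 to 28.5 CPM. The T cell list itself ranged from 3235 to 3906 and from 4059 to 4186 CPM. None of these lists overlapped between the groups, and their part in the called genes was not tested. Mki67 was at 34.9 ± 29.5 and 29.8 ± 21.8 CPM (-0.55 ± 0.56, edgeR adjusted p = 0.656) and Top2a at 33.7 ± 15.9 and 35.5 ± 30.9 CPM.

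In Pdgfra cells, 101 of 12093 genes were called (0.835%), of which 0 of 100 tested cell cycle genes (DESeq2 called 1). At an unadjusted edgeR p under 0.05 there were 16 of these 100 genes and 1700 of all 12093. Mki67 lay below the filter on low counts there, at 1.31 ± 1.78 CPM in Ad-Lib and 0.144 ± 0.169 in TAN. In Cd79a cells, 0 of 6701 genes were called (0%; 133 at an unadjusted p under 0.05 by edgeR, DESeq2 0), and in Ncr1 cells 0 of 1651 (0%; 88 at an unadjusted p under 0.05 by edgeR, DESeq2 0). The marker genes lay below the filter in both.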

How the data were processed

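Droplet single-cell libraries of the iWAT SVF, 4 Ad-Lib and 4 TAN, were grouped by the labels. The authors deposited raw UMI counts per gene and cell barcode, made with Cell Ranger on mm10 (GRCm38) from reads in exons. The study's methods and processing notes name version 3.0.2 and the file headers 6.0.1, and the annotation used for counting is not given in the sources used here. Counts were not normalized. Barcodes with 700 to 30000 UMIs, 200 to 8000 genes and at most 10% mitochondrial UMIs were kept (36370 of 44427). Without this filter 316 barcodes met the marker rule, of which 30 lay above the UMI limit and 6 above the mitochondrial limit. Each kept cell was assigned to the 1 lineage gene it held.

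Shares were compared between 4 and 4 libraries by exact permutation (two-sided, all 70 assignments, smallest p 0.0286), with Benjamini-Hochberg adjustment over 6 lineages or 8 classes. Intervals are 95% Clopper-Pearson and limits for a count of 0 are 3 counts of the total. Both cover counting error only. Counts were summed per library and tested with edgeR 4.0.16 (quasi-likelihood, TMM, filterByExpr) in R 4.3.3, with DESeq2 1.42.0 as an alternative, for sums of 10 or more cells in at least 3 libraries a group. The test was tried on simulated counts. Levels are UMIs per 1000000 (CPM). Log2 differences between cycling and other cells added 10 CPM. Doublets were scored with Scrublet in scanpy 1.11.5, and the top 0.8% per 1000 cells of a library were marked. Promoters came from RefSeq (GRCm38.p6) and gene positions from GENCODE M21. The cycling cells, gene lists and tests were chosen with earlier results of these data known. Named were the markers, called list genes, the 5 leading called genes of the cycling cells on one side in all libraries, and genes with the largest ratio of cycling to other cells of a lineage gene. Genes singled out among subtype lists, and those with the lowest ratio, were chosen after their values were seen. Called genes outside the cell cycle lists in whole lineages are left out, apart from Mt2.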

Additional observations from a re-analysis of the deposited data

Results flagged for a closer look

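In 3 of 38 groups of values checked, 1 library lay far from the other 3 of its group by Dixon's test, which flags about 1 group in 20 by chance. Cells with Cd79a alone were 43.75% of the cycling cells of TAN 8 (7 of 16 cells) and 0% to 3.70% in the other TAN libraries. Cells with none of the lineage genes were 41.67% of the cycling cells of TAN 2 (10 of 24 cells) and 23.3% to 25.9% in the other TAN libraries. The cycling share thinned to 2000 UMIs was 1.042% in Ad-Lib 3 and 0.517% to 0.566% in the other Ad-Lib libraries.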

How the results depend on the processing

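Of 471 alternative values, 369 kept their direction and their side of the threshold or, for counts of genes, stayed within 1.5 times. Another 59 lost the call or, for counts, fell by more than 1.5 times, 35 gained it or rose by as much, and 8 reversed. Differences are TAN minus Ad-Lib in percentage points. The thinned cycling share ranged from -0.240 to 0.00612 when 1 library was left out, the last without Ad-Lib 3. With 1 library left out, the share within Cd3e cells ranged from -0.853 to 0.222 (reversed at 0.125 without Ad-Lib 3 and at 0.222 without TAN 8), and under other settings from -1.74 (longer lists) to -0.233 (doublets removed). That within Cd79a cells ranged from -1.33 to 0.295 with 1 left out (reversed without Ad-Lib 1) and was 0.220 when thinned to 2000 UMIs. The composition difference ranged from -1.19 (without TAN 8) to 13.4 for Cd79a and from -1.17 (without Ad-Lib 1) to 7.35 for several genes, and the latter was -4.88 with Pecam1 set aside. The S phase share ranged from -3.45 to -1.25.

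Counts of changed genes depended on the method. In cycling cells they were 39 by DESeq2, 210 with no filter on low counts, 0 without Cd3e or Cd79a cells, 7 with doublets removed, 94 without Ad-Lib 3 and TAN 6 together (chosen after seeing the data) and 0 to 357 with 1 library left out, the highest without Ad-Lib 3. Cell cycle genes among them were 3 by DESeq2, 3 without both libraries and 0 to 8 with 1 left out. For whole lineages, DESeq2 gave 239 genes in Pecam1 and 33 in C1qa cells, and 1 cell cycle gene in Pdgfra cells. With no filter there were 192 in Pdgfra, 239 in Pecam1, 74 in C1qa, 1058 in Cd3e, 9 in Cd79a and 54 in Ncr1 cells, with 4, 5 and 18 cell cycle genes in C1qa, Cd3e and Ncr1 cells. By longer lists there were 228 in Pecam1, 32 in C1qa, 248 in Cd3e and 1 in Ncr1 cells, with 1 and 2 cell cycle genes in C1qa and Cd3e cells. With 1 library left out, counts were 28 to 141 in Pdgfra, 46 to 199 in Pecam1, 6 to 29 in C1qa, 132 to 969 in Cd3e and 0 to 2 in Ncr1 cells, and cell cycle genes 2 to 4 in Pecam1, 1 to 3 in C1qa, 0 to 8 in Cd3e and 0 to 1 in Ncr1 cells. The cause was not tested. No paired analysis was possible because the groups share no replicate numbers. Counts of 280 cells limit every share within a lineage. In simulated cycling sums, 34.4% of genes changed 2-fold and 97.9% of those changed 4-fold were recovered.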
